A study of Mus musculus with 15 samples.

Results

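The genes described here are 42 genes of fatty acid oxidation and of the peroxisome, chosen by symbol from the 27179 genes of each table: regulators, enzymes of fatty acid activation, the carnitine shuttle, the mitochondrial and peroxisomal oxidation spirals, and peroxisome import proteins. All 42 symbols were found, each once. They were measured by RNA sequencing in mouse induced renal tubular epithelial cells (iRECs), fibroblasts turned into tubule-like cells by forced expression of transcription factors. The 4 cultures in a gel were made by hand in Matrigel, an extract of basement membrane, by hand in fibrin, the protein mesh of a clot, by hand in collagen I, or with an inkjet bioprinter, whose gel held fibrin as well as collagen I (printed). Their common control was a culture of the same cells on plates (2D). Every culture was kept in Renal Epithelial Growth Medium and taken on day 7, with 3 libraries per condition from passages 35, 48 and 53 of 1 line, each passage split over the 5 conditions from 1 pool of cells. The replicates are thus cultures of 1 line and not animals, and p-values measure only the spread between them. The values come from the authors' 4 tables, 1 for each culture over the same 3 libraries in 2D. A table holds 1 mean and 1 fold change per gene over 6 libraries, so neither the value of a single library nor its depth is known here. The base means, which are mean normalized read counts, sum to between 42789952 and 45388657 in the authors' deposited tables.

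Fatty acids enter oxidation as acyl-CoA, made by acyl-CoA synthetases. Long chains cross into mitochondria as carnitine esters through Cpt1, a translocase and Cpt2, and there lose acetyl-CoA in repeated rounds of dehydrogenation, hydration, dehydrogenation and thiolysis. Peroxisomes shorten very long and branched chains with enzymes of their own. Thioesterases cleave acyl-CoA back to free fatty acid. The proximal tubule of the kidney draws much of its energy from this pathway, and the PPAR nuclear receptors switch its genes on with a coactivator, Ppargc1a.

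Of the 42 genes, 4 passed an adjusted p of 0.05 in at least 1 of the authors' deposited tables. The thioesterase gene Acot2 fell in all 4 cultures, the synthetase gene Acsl5 rose in the 3 hand-cast gels, the synthetase gene Acsl3 rose in fibrin and in the printed cultures, and the peroxisomal oxidase gene Acox3 fell in collagen I. No gene of the mitochondrial spiral itself or of the carnitine shuttle passed. Among the genes with an adjusted p in the authors' deposited tables, those that passed were 2 of 40 with Matrigel, 3 of 38 with fibrin, 3 of 37 with collagen I and 2 of 41 with printing. Over all genes with an adjusted p, 6.36% passed with Matrigel, 8.3% with fibrin, 11.2% with collagen I and 3.18% with printing, so the share of these genes that passed lay near that of all genes in each table. By direction, 1, 2, 1 and 1 of the genes passed as higher in Matrigel, fibrin, collagen I and the printed cultures, where 4.03%, 5.19%, 6.51% and 2.51% of all genes did. As lower passed 1, 1, 2 and 1, where 2.32%, 3.11%, 4.65% and 0.675% of all genes did. The 4 comparisons share the libraries in 2D, so they are not independent of each other. RNA was taken from whole cultures, in which fewer cells of a type and less RNA per cell cannot be told apart.

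**Figure D1:**
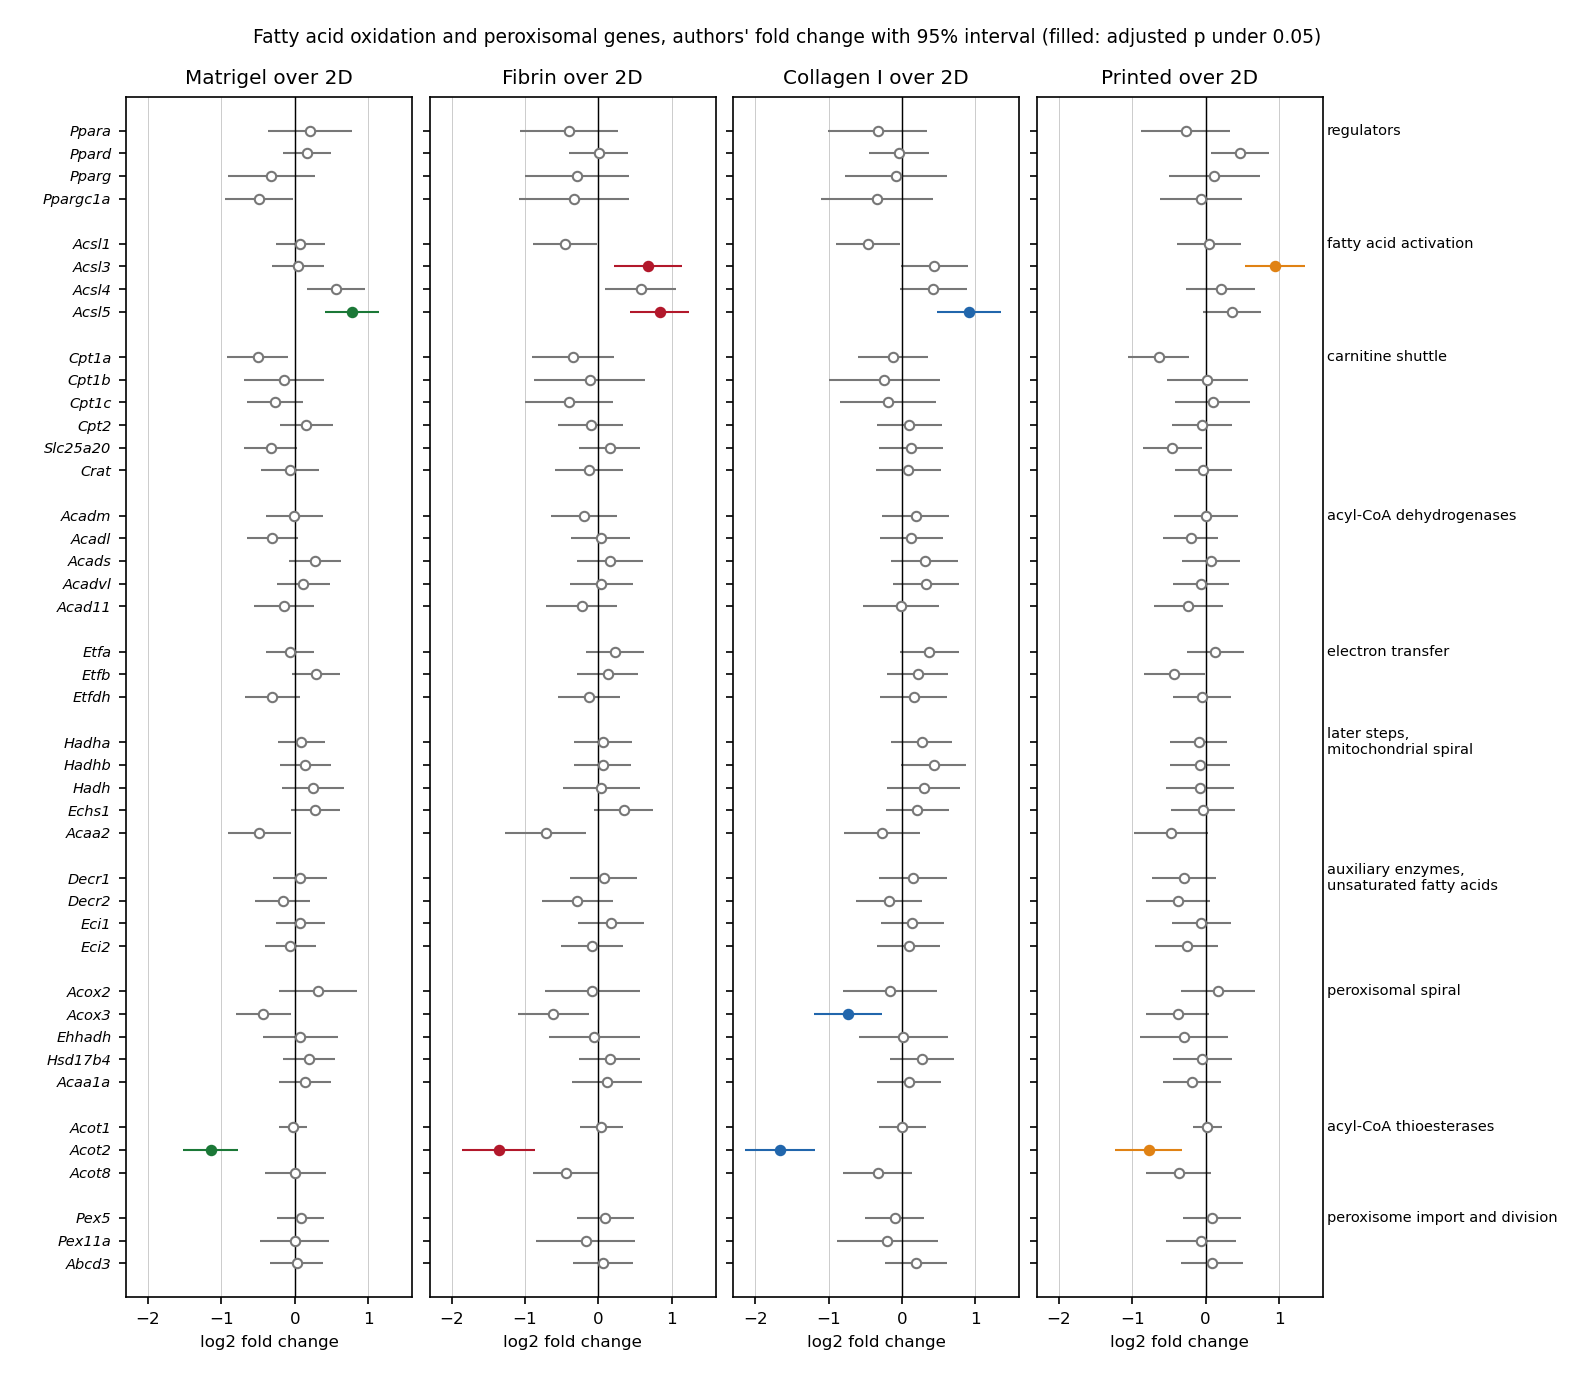
Log2 fold change over 2D of the 42 genes in the authors' deposited tables, with 95% intervals, grouped by role; filled points passed an adjusted p of 0.05. Acot2 is the gene farthest to the left in every panel, and the points from the carnitine shuttle to the auxiliary enzymes lie between -0.72 and 0.43.

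Acot2 encodes the thioesterase of the mitochondrial matrix that acts on long-chain acyl-CoA, and it stands beside its cytosolic copy Acot1 on chromosome 12. The region from 83987861 to 83993877 of build GRCm38 holds Acot2, and that from 84009502 to 84017670 holds Acot1. The coding sequences (GENCODE M21) are shown to mark where these near-identical copies differ; which reads carry the fall of Acot2 was not tested. Acot2 begins with 123 coding bases, 41 codons, that lie before the aligned start of Acot1. Its start codon is in capitals.
Acot2, coding bases 1 to 123: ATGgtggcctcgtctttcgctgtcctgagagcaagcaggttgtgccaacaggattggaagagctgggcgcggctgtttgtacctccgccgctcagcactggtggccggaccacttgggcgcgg
Past that start, 1180 of 1239 aligned bases were identical, 95.2%, and the longest identical run was 273 bases. The 90 bases with the most differences, 14, are printed from both genes with the differing bases in capitals.
Acot2, coding bases 920 to 1009: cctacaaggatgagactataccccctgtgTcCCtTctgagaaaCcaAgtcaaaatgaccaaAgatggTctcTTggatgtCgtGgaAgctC
Acot1, coding bases 797 to 886: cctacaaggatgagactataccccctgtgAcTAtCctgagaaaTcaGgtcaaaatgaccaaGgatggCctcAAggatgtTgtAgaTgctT
Of all stretches of 50 bases in the longest Acot2 transcript, 24.5% also occur in Acot1 and 27.7% in any other gene. The sources used here do not say how reads matching several genes were counted.

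The implied level of Acot2 was 1013 normalized reads in Matrigel, 851 in fibrin, 679 in collagen I and 1322 in the printed cultures, against 2215 in 2D, as worked out from the base mean and fold change of the authors' deposited tables. Every culture lay below 2D, collagen I the lowest and the printed cultures the highest of the 4. In the authors' deposited tables (DESeq2 Wald test, Benjamini-Hochberg adjustment) the log2 fold change was -1.15 ± 0.19 (standard error) in Matrigel, with an adjusted p of 2.8e-07, and -1.36 ± 0.25 in fibrin, with an adjusted p of 7.1e-06. It was -1.66 ± 0.24 in collagen I, with an adjusted p of 2.1e-09, and -0.77 ± 0.23 in the printed cultures, with an adjusted p of 0.033, in the authors' deposited tables. These are levels 2.22-fold, 2.57-fold, 3.16-fold and 1.71-fold lower than in 2D. By p-value Acot2 ranked 97th of 928 genes that passed in Matrigel, 166th of 1215 in fibrin, 58th of 1570 in collagen I and 404th of 481 in the printed cultures. The call in the printed cultures was lost (adjusted p = 0.10) when the Wald statistics were rescaled so that their interquartile range over all genes equalled that of a standard normal, called the empirical null here.

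Acot1 itself was listed in the authors' deposited tables with base means of 0.13 to 0.49, so the reads assigned to this pair of genes were almost all those of Acot2. Acot8, the peroxisomal thioesterase, did not pass: its log2 fold changes in the authors' deposited tables were 0.0058, -0.44, -0.33 and -0.37 in Matrigel, fibrin, collagen I and the printed cultures, with a smallest adjusted p of 0.28. Acot4, another gene of the same cluster, had log2 fold changes of -0.032, -0.41, 0.023 and -0.26 in the authors' deposited tables, with a smallest adjusted p of 0.52.

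**Figure D2:**
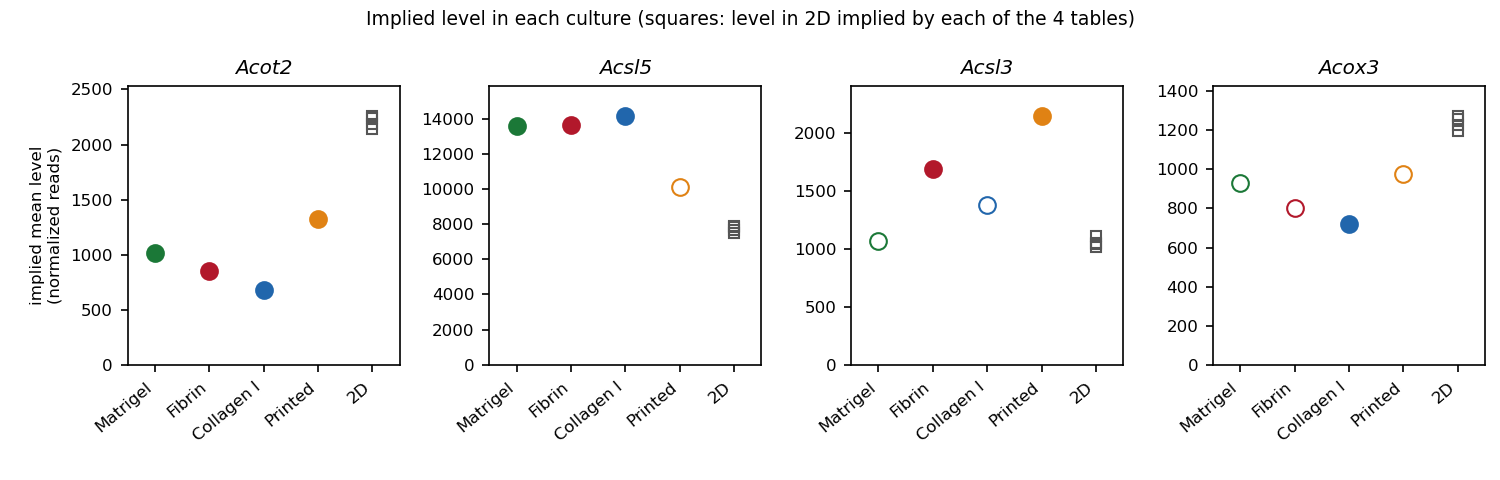
Implied mean level in normalized reads of the 4 genes that passed in at least 1 table, in each culture (circles, filled where the call passed) and in 2D (squares, 1 for each table). Acot2 lies between 679 and 1322 in the cultures, below 2215 in 2D; Acsl5 lies above 2D in every culture, with the printed cultures the nearest to it.

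The 4 acyl-CoA synthetases activate long-chain fatty acids at different membranes, and 2 of them passed. Acsl5, found on mitochondria and the endoplasmic reticulum, had implied levels of 13558 normalized reads in Matrigel, 13640 in fibrin, 14131 in collagen I and 10127 in the printed cultures, against 7759 in 2D, from the authors' deposited tables. The 3 hand-cast gels lay close together, and the printed cultures lay between them and 2D. Its log2 fold change in the authors' deposited tables (DESeq2 Wald test) was 0.78 ± 0.19 in Matrigel with an adjusted p of 0.0012, 0.83 ± 0.21 in fibrin with 0.0019, 0.91 ± 0.22 in collagen I with 0.0011, and 0.37 ± 0.20 in the printed cultures with 0.50. Under the empirical null the calls in fibrin (adjusted p = 0.095) and collagen I (adjusted p = 0.25) were lost. Of the exon bases of Acsl5, 8.31% overlap Zdhhc6 on the opposite strand; Zdhhc6 had log2 fold changes between 0.0052 and 0.036 in the authors' deposited tables.

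Acsl3, an enzyme of the endoplasmic reticulum and of lipid droplets, had implied levels of 1072 normalized reads in Matrigel, 1690 in fibrin, 1376 in collagen I and 2146 in the printed cultures, against 1050 in 2D, from the authors' deposited tables. The printed cultures were the highest, and Matrigel lay beside 2D. Its log2 fold change in the authors' deposited tables (DESeq2 Wald test) was 0.94 ± 0.21 in the printed cultures, with an adjusted p of 0.00074, and 0.68 ± 0.24 in fibrin, with an adjusted p of 0.048. In Matrigel it was 0.036 ± 0.18 and in collagen I 0.44 ± 0.23 in the authors' deposited tables, with adjusted p-values of 0.97 and 0.24. The call in fibrin was lost when genes of low base mean were kept in the adjustment (adjusted p = 0.064) and under the empirical null (adjusted p = 0.40), and centring the fold changes on their median put it at the threshold, 0.050. Utp14b shares 244 exon bases with Acsl3 on the same strand, 5.60% of them, and had log2 fold changes of 0.037, 0.72, 0.68 and 0.53 in Matrigel, fibrin, collagen I and the printed cultures, in the authors' deposited tables, at base means of 72.5 to 105.0. Its part in the values of Acsl3 was not tested.

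The other synthetase genes did not pass. Acsl4, which prefers arachidonic acid and had the highest level per kilobase of the group, had log2 fold changes of 0.56, 0.57, 0.43 and 0.21 in Matrigel, fibrin, collagen I and the printed cultures, in the authors' deposited tables, with adjusted p-values of 0.072, 0.14, 0.26 and 0.89. Acsl1 had values between -0.47 and 0.073 in the authors' deposited tables.

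Promoter windows of 300 bases, from 250 before to 50 after the start (RefSeq, GRCm38.p6), were matched for 37 of the 42 genes, 44 windows in all. They were searched on both strands for AGGTCA, the half-site to which PPAR and RXR receptors bind, and for its direct repeat AGGTCANAGGTCA; each repeat also holds the half-site. The half-site occurred in 7 of the 44 windows, 15.9%, and in 16.3% of 32851 windows of all genes. The direct repeat occurred in none of the 44 and in 0.0396% of all windows. The genes with a half-site were Acadm, Acadvl, Cpt1a, Cpt1c, Echs1 and Pparg. The windows of the gene that fell in all 4 cultures, of the one that rose in the 3 gels and of the rate-limiting shuttle gene Cpt1a are printed with any half-site, read on either strand, in capitals; only that of Cpt1a has one.
Acot2, chr12:83987611-83987910, plus strand: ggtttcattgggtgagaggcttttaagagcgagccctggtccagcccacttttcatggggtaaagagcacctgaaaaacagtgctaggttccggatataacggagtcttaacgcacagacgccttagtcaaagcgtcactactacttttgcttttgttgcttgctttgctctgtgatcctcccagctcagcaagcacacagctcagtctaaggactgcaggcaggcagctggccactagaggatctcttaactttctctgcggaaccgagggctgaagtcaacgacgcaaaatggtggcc
Acsl5, chr19:55253119-55253418, plus strand: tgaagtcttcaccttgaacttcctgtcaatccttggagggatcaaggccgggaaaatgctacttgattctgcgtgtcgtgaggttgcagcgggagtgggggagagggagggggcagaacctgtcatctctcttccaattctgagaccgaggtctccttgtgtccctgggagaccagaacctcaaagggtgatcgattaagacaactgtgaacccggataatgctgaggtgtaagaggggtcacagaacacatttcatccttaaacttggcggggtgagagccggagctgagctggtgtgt
Cpt1a, chr19:3323051-3323350, plus strand: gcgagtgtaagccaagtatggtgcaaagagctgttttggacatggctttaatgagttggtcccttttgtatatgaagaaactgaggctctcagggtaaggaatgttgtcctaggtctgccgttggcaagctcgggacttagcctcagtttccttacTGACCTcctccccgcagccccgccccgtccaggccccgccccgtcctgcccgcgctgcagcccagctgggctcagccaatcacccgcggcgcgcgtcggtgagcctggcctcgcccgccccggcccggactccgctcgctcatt
Among the 4 genes that passed, none of the windows of Acot2, Acsl5, Acsl3 and Acox3 holds AGGTCA. No binding was measured in these cultures.

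The regulators differed in level by more than 2 orders of magnitude. Ppard, the widely expressed PPAR, had 725 normalized reads per kilobase of its longest transcript in Matrigel, 630 in fibrin, 597 in collagen I and 925 in the printed cultures, against 637 in 2D. Pparg, the receptor of fat cells, had 51.5, 52.6, 60.8 and 79.2 per kilobase in the 4 cultures in the same order, against 64.4 in 2D. Ppara, the receptor that drives fatty acid oxidation in liver and proximal tubule, had 38.8, 23.0, 23.7 and 26.1 per kilobase, against 30.8 in 2D. Ppargc1a, the coactivator of mitochondrial genes, was low, with 0.86 to 1.82 per kilobase in the cultures, against 1.57 in 2D. None of the 4 regulators passed in any table. The largest log2 fold change of Ppard in the authors' deposited tables was 0.47 ± 0.20 in the printed cultures (adjusted p = 0.25), and its values in Matrigel, fibrin and collagen I were 0.17, 0.0025 and -0.039. Ppara had log2 fold changes of 0.21, -0.40, -0.33 and -0.27 in Matrigel, fibrin, collagen I and the printed cultures, in the authors' deposited tables. Pparg had -0.32, -0.29, -0.080 and 0.12 in the authors' deposited tables, in that order. The standard errors of these receptors reached 0.36, and the 95% interval reached beyond a 2-fold fall for Pparg in fibrin and for Ppara in fibrin and collagen I. Ppargc1a had -0.49, -0.33, -0.34 and -0.062 in the authors' deposited tables, at base means of 6.67 to 12.04.

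Of the 3 Cpt1 genes, the liver form was the one with a substantial level. Cpt1a, the gate of mitochondrial entry, had 1368 normalized reads per kilobase in Matrigel, 1502 in fibrin, 1724 in collagen I and 1279 in the printed cultures, against 1927 in 2D. The muscle form Cpt1b had 2.39 to 3.66 per kilobase in the cultures and 3.10 in 2D, and the brain form Cpt1c had 1.18 to 3.06 per kilobase in the cultures and 1.71 in 2D. Of the Cpt1b stretches of 50 bases, 93.01% also occur in the overlapping gene Gm44502, which was listed at 0, so the level of Cpt1b is uncertain. Cpt1a lay below 2D in all 4 cultures without passing: its log2 fold changes in the authors' deposited tables were -0.51 ± 0.21 in Matrigel, -0.35 ± 0.28 in fibrin, -0.12 ± 0.25 in collagen I and -0.64 ± 0.21 in the printed cultures, with adjusted p-values of 0.16, 0.59, 0.83 and 0.062. The low genes had log2 fold changes between -0.24 and 0.022 for Cpt1b and between -0.40 and 0.096 for Cpt1c in the authors' deposited tables. Cpt2, the translocase gene Slc25a20 and the carnitine acetyltransferase gene Crat lay between -0.45 and 0.16 in the authors' deposited tables.

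In mitochondria the acyl-CoA dehydrogenases open each round, and each handles a range of chain lengths. Acadl, for long chains, was the highest of the 5, with 3313, 4145, 4343 and 3632 normalized reads per kilobase in Matrigel, fibrin, collagen I and the printed cultures, against 4077 in 2D. Its log2 fold changes in the authors' deposited tables were -0.31, 0.032, 0.13 and -0.20. Across Acadm, Acadl, Acads, Acadvl and Acad11 none of 20 values passed, and they lay between -0.31 and 0.33 with a smallest adjusted p of 0.40 in the authors' deposited tables. Of the Acadvl stretches of 50 bases, 24.02% also occur in Dvl2, read on the opposite strand.

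The electrons of these enzymes pass through the flavoprotein of Etfa and Etfb to Etfdh. Etfb was the highest of all 42 genes per kilobase in Matrigel, collagen I and 2D but not in fibrin or the printed cultures, with 5288, 4637, 4810 and 3212 in Matrigel, fibrin, collagen I and the printed cultures, against 4281 in 2D. Its log2 fold changes in the authors' deposited tables were 0.28, 0.13, 0.21 and -0.42, with a smallest adjusted p of 0.42. Of its 50-base stretches, 67.3% also occur in the overlapping gene Gm45233, so its level is uncertain. None of the 12 values of the 3 genes passed; they lay between -0.42 and 0.37 in the authors' deposited tables.

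The later steps are carried by the trifunctional protein of Hadha and Hadhb for long chains and by Echs1, Hadh and Acaa2 for shorter ones. Hadh was the highest of these in Matrigel, collagen I and 2D, while Echs1 was in fibrin (3810) and the printed cultures (3016). Hadh had 3756, 3161, 3727 and 3013 normalized reads per kilobase in the cultures in the order Matrigel, fibrin, collagen I and printed, against 3121 in 2D, and log2 fold changes of 0.25, 0.038, 0.30 and -0.072 in the authors' deposited tables. Hadha and Hadhb stand head to head on chromosome 5, and their promoter windows overlap by 228 of 300 bases. Their log2 fold changes in the authors' deposited tables were 0.088 and 0.14 in Matrigel, 0.064 and 0.056 in fibrin, 0.27 and 0.43 in collagen I, and -0.093 and -0.074 in the printed cultures. Within each culture the pair differed by less than 1 standard error. Of the Hadhb stretches of 50 bases, 61.5% also occur in the copy Gm13910. Acaa2, the thiolase of the last step, had the lowest value of these 5 genes, -0.72 ± 0.28 in fibrin in the authors' deposited table, which did not pass (adjusted p = 0.094).

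The auxiliary enzymes prepare double bonds of unsaturated fatty acids for the spiral. Eci1 was the highest, with 4336, 4551, 4336 and 3992 normalized reads per kilobase in Matrigel, fibrin, collagen I and the printed cultures, against 4086 in 2D, and log2 fold changes of 0.075, 0.17, 0.14 and -0.059 in the authors' deposited tables. Decr1, Decr2, Eci1 and Eci2 gave 16 values between -0.38 and 0.17, none of which passed (smallest adjusted p = 0.58 in the authors' deposited tables). In the printed cultures all 4 lay below 0, as did all 5 genes of the later steps. Of the 35 members with a base mean of 100 or more there, 11 lay above 0, and of all such genes 5931 of 11394 did.

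The intervals bound the size of change in these groups, in which Decr2 is peroxisomal and Acad11 and Eci2 are found in peroxisomes too. For the 21 genes of the shuttle, dehydrogenases, electron transfer, later steps and auxiliary enzymes with a base mean of 100 or more, 82 of 84 intervals of 95% in the authors' deposited tables lay within a 2-fold change either way, and 43 within 1.5-fold. The exceptions beyond 2-fold were Acaa2 in fibrin and Cpt1a in the printed cultures. By culture, the share within 2-fold was 100%, 95.2%, 100% and 95.2% in Matrigel, fibrin, collagen I and the printed cultures, and over all genes with such a base mean it was 90.8%, 82.6%, 78.5% and 89.6%. These genes and all genes were matched only by that minimum base mean and not by level, so the shares are not a like comparison. The intervals follow the shrunken fold changes of the authors' fit, so they are pulled towards 0. The median log2 fold change of the genes with an adjusted p was 0.053, 0.017, 0.13 and -0.059 in the authors' deposited tables, and that of all genes was -0.0039, 0.0037, 0.010 and 0.010.

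**Figure D3:**
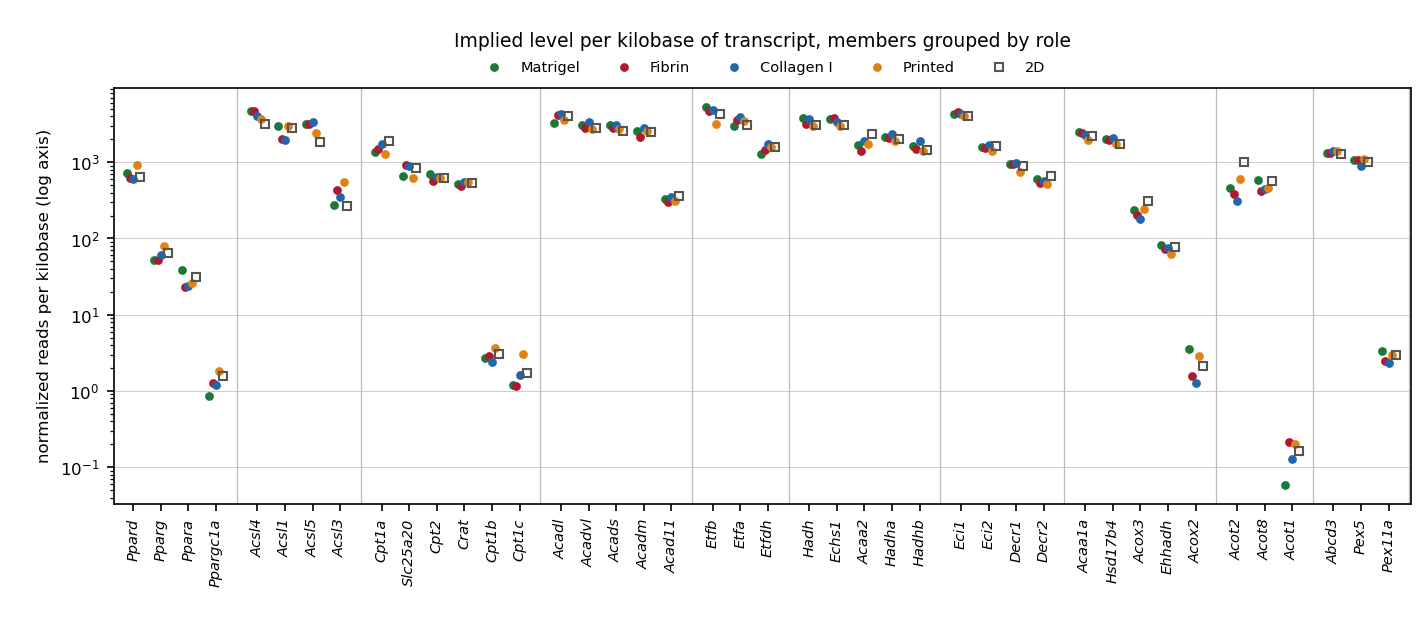
Implied level per kilobase of the longest transcript (normalized reads, log axis) of the 42 genes in the 4 cultures (circles) and 2D (squares), grouped by role and sorted within a role. In 2D 23 of the 42 genes lay above 1000 and 6 below 10. Among those above 1000 the widest span is that of Acot2, from 309 in collagen I to 1008 in 2D.

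The peroxisomal spiral was led by Acaa1a, its thiolase, with 2470, 2394, 2295 and 1983 normalized reads per kilobase in Matrigel, fibrin, collagen I and the printed cultures, against 2224 in 2D. Its log2 fold changes in the authors' deposited tables were 0.14, 0.12, 0.10 and -0.18, none of which passed; 34.0% of its 50-base stretches also occur in Acaa1b. Acox3, the oxidase of methyl-branched chains, had implied levels of 932 normalized reads in Matrigel, 800 in fibrin, 719 in collagen I and 979 in the printed cultures, against 1241 in 2D, from the authors' deposited tables. All cultures lay below 2D, and collagen I was the lowest. The log2 fold change in the authors' deposited tables (DESeq2 Wald test) was -0.74 ± 0.24 in collagen I, with an adjusted p of 0.023, and -0.43 ± 0.19 in Matrigel, -0.61 ± 0.25 in fibrin and -0.38 ± 0.22 in the printed cultures, with adjusted p-values of 0.20, 0.10 and 0.55. The call in collagen I was lost under the empirical null (adjusted p = 0.57). The bifunctional enzyme genes Ehhadh and Hsd17b4 lay between -0.29 and 0.27 in the authors' deposited tables and did not pass. Acox2, the oxidase of bile acid precursors, was low, at 1.28 to 3.57 normalized reads per kilobase in the cultures and 2.11 in 2D.

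Of the peroxisome proteins, Abcd3, which takes up acyl-CoA, was the highest, with 1305 to 1411 normalized reads per kilobase in the cultures, against 1272 in 2D, and log2 fold changes of 0.023, 0.066, 0.19 and 0.085 in Matrigel, fibrin, collagen I and the printed cultures, in the authors' deposited tables. Pex5, the import receptor, lay between -0.098 and 0.094 in the authors' deposited tables. Pex11a, a division factor that PPAR agonists induce in liver, had 2.30 to 3.34 normalized reads per kilobase in the cultures, against 2.96 in 2D.

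Whether a culture differed from another was tested as the difference of the fold changes over their summed errors, with Benjamini-Hochberg adjustment over all genes of a pair. No gene of the 42 passed in any of the 6 pairs. Of all genes, 1.13% passed between Matrigel and fibrin, 0.478% between Matrigel and collagen I, 0.612% between Matrigel and printed, 0.548% between fibrin and collagen I, 1.4% between fibrin and printed, and 0.89% between collagen I and printed. At an unadjusted p under 0.05 there were 1, 0, 2, 0, 1 and 2 of the genes in the same order, of 38, 37, 40, 37, 38 and 37 tested. The test counts the spread of the shared 2D libraries again and is likely too strict. The nearest to passing was Acsl3, whose log2 fold change in Matrigel minus that in the printed cultures was -0.91 ± 0.28 (adjusted p = 0.12). The value for Acot2 in collagen I minus printed was -0.89 ± 0.34 (adjusted p = 0.35), and for Etfb in Matrigel minus printed 0.71 ± 0.27 (adjusted p = 0.46). With an assumed correlation of 0.5 between the fold changes, Acsl3 and Etfb passed between Matrigel and printed, and Acot2 between collagen I and printed. The call of Acsl5 in the gels and its absence in the printed cultures was therefore not shown to be a difference: the largest of its 3 differences, collagen I minus printed, was 0.55, with a 95% interval from -0.039 to 1.13.

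Beyond these 42, 134 other genes of the pathway in 6 lists were read from the same tables. Dbi, the acyl-CoA binding protein that carries acyl-CoA in the cytosol, rose in all 4 cultures, with log2 fold changes of 0.61 ± 0.17, 1.11 ± 0.20, 1.38 ± 0.22 and 0.87 ± 0.19 in Matrigel, fibrin, collagen I and the printed cultures, in the authors' deposited tables. The largest of its adjusted p-values there (DESeq2) was 0.0087. In the list of fatty acid uptake and binding, 4 of 20 genes with an adjusted p rose in Matrigel, 2 of 21 rose and 2 fell in fibrin, 4 of 20 rose and 2 fell in collagen I, and 1 of 20 rose in the printed cultures. Among all genes the shares that rose and that fell were 4.03% and 2.32% in Matrigel, 5.19% and 3.11% in fibrin, 6.51% and 4.65% in collagen I, and 2.51% and 0.675% in the printed cultures. The medium-chain synthetase Acsm2 rose in the 3 gels, with log2 fold changes of 1.38, 1.42 and 1.13, and had 0.053 in the printed cultures, in the authors' deposited tables. Acsm1 rose in Matrigel and collagen I (1.15 and 1.48 in the authors' deposited tables). Slc22a4, a transporter of ergothioneine and carnitine, fell by 1.42 on the log2 scale in fibrin and by 1.05 in collagen I in the authors' deposited tables. Slc27a2, which activates very long chains, rose in Matrigel and fell in collagen I, with 0.66 and -0.79 in the authors' deposited tables, and Slc27a3 fell by 0.84 in fibrin. Acot9, a mitochondrial thioesterase named after its values were seen, rose by 0.65 in collagen I in the authors' deposited table.

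Among genes of peroxisomal metabolism, 4 of 23 rose in Matrigel, 2 of 23 in fibrin, 4 of 22 in collagen I, where 1 fell, and 1 of 22 in the printed cultures. In either direction this is 17.4%, 8.70%, 22.7% and 4.55% of the list, beside 6.36%, 8.3%, 11.2% and 3.18% of all genes, so the shares in fibrin and the printed cultures lay near those of all genes. Hao2, a peroxisomal oxidase of hydroxy acids, rose in the 3 gels, with log2 fold changes of 1.98 ± 0.29, 1.96 ± 0.33 and 1.61 ± 0.37 in the authors' deposited tables. In the printed cultures it had 0.77 ± 0.32 (DESeq2 adjusted p = 0.24). Its implied level in the same 2D libraries was 74.9 normalized reads from the printed comparison and 45.2 to 59.9 from those of the gels. Its implied level was 127 in the printed cultures and 138 in collagen I, so a gap between gels and printed cultures is uncertain. Nudt19, which cleaves coenzyme A in kidney peroxisomes, rose by 0.77, 0.80 and 0.76 in the gels in the authors' deposited tables; 35% of its exon bases overlap an antisense gene. Slc25a17, a peroxisomal cofactor carrier, rose in Matrigel and collagen I (0.86 and 0.65 in the authors' deposited tables). Catalase (Cat), which breaks down the peroxide of peroxisomal oxidases, rose in collagen I and the printed cultures, with 0.74 and 0.97 in the authors' deposited tables. Acaa1b, the other peroxisomal thiolase, rose in Matrigel (0.91), and the amino acid oxidase gene Dao fell in collagen I (-0.93), in the authors' deposited tables. Of the peroxins, Pex13 of the import pore rose in collagen I (0.64 in the authors' deposited table), and none of the 14 with an adjusted p passed in Matrigel, fibrin or the printed cultures, where 0, 2 and 2 had an unadjusted DESeq2 p under 0.05 and 6.36%, 8.3% and 3.18% of all genes passed.

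Of the PPAR target genes with an adjusted p, 4 of 18 rose and 1 fell in Matrigel, 0 of 19 passed in fibrin, where 8 had an unadjusted DESeq2 p under 0.05, 2 of 17 rose and 1 fell in collagen I, and 2 of 18 rose and 1 fell in the printed cultures. Of all genes, 6.36%, 8.3%, 11.2% and 3.18% passed in either direction in the 4 tables, in the same order. Cyp4a10, a fatty acid omega-hydroxylase and a strong PPARα target in mouse liver and kidney, rose in Matrigel, with a log2 fold change of 2.07 ± 0.26 in the authors' deposited table (DESeq2 adjusted p = 4.4e-13). In fibrin, collagen I and the printed cultures it had 0.25, -0.20 and -0.039 in the authors' deposited tables. The differences of Matrigel from fibrin (1.81), from collagen I (2.27) and from printed (2.11) all passed the test of the difference. Ucp2 and Txnip rose in Matrigel (0.69 and 1.03) and collagen I (0.66 and 0.90), and Tfeb rose in Matrigel (0.68), in the authors' deposited tables. In fibrin and the printed cultures Ucp2 had 0.63 and 0.28 and Txnip 0.74 and 0.27, none of which passed. The implied level of Txnip in the same 2D libraries ran from 2452 normalized reads (collagen I comparison) to 3297 (printed comparison). Its implied levels in those cultures were 4567 and 3971, so its split between cultures is uncertain. The genes that fell, named after their values were seen, were Hilpda in Matrigel (-0.63) and Vnn1 in collagen I (-1.33) and the printed cultures (-1.06), in the authors' deposited tables. The hormone gene Fgf21 and the lipase gene Lpl rose in the printed cultures, with 1.40 ± 0.33 and 0.98 ± 0.27 in the authors' deposited table. Fgf21 was low, with base means of 15.5, 11.4, 6.38 and 57.5 in Matrigel, fibrin, collagen I and the printed cultures. Its implied level in the same 2D libraries ran from 7.78 to 31.6 between comparisons, so the size of its rise is uncertain.

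The list of PPAR partners and coregulators also holds enzymes, Acacb among them. Ncoa1, a coactivator of nuclear receptors, fell in fibrin and collagen I (-0.66 and -0.82 in the authors' deposited tables). Acacb, which makes the malonyl-CoA that inhibits Cpt1, rose in the printed cultures, with 1.17 ± 0.25 in the authors' deposited table (DESeq2 adjusted p = 0.00052). Of the 23 genes of this list with an adjusted p, none passed in Matrigel, where 3 had an unadjusted DESeq2 p under 0.05. Of all genes, 6.36% passed there. In the list of mitochondrial acyl-CoA and ketone body genes, Acat2, which encodes a cytosolic thiolase, rose in fibrin and collagen I (1.07 and 0.92). Bdh1 rose in Matrigel (0.67) and Acad10 fell in fibrin (-0.75), all in the authors' deposited tables. None of the 20 passed in the printed cultures, where 2 had an unadjusted DESeq2 p under 0.05 and 3.18% of all genes passed. Under the empirical null, 15 of 42 calls of the genes plotted from these lists held. They were Dbi in fibrin, collagen I and printed, Hao2 and Acsm2 in Matrigel and fibrin, Slc25a17, Nudt19 and Cyp4a10 in Matrigel, Slc22a4 and Acat2 in fibrin, and Cat, Fgf21 and Acacb in the printed cultures; the other 27 were lost.

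**Figure D4:**
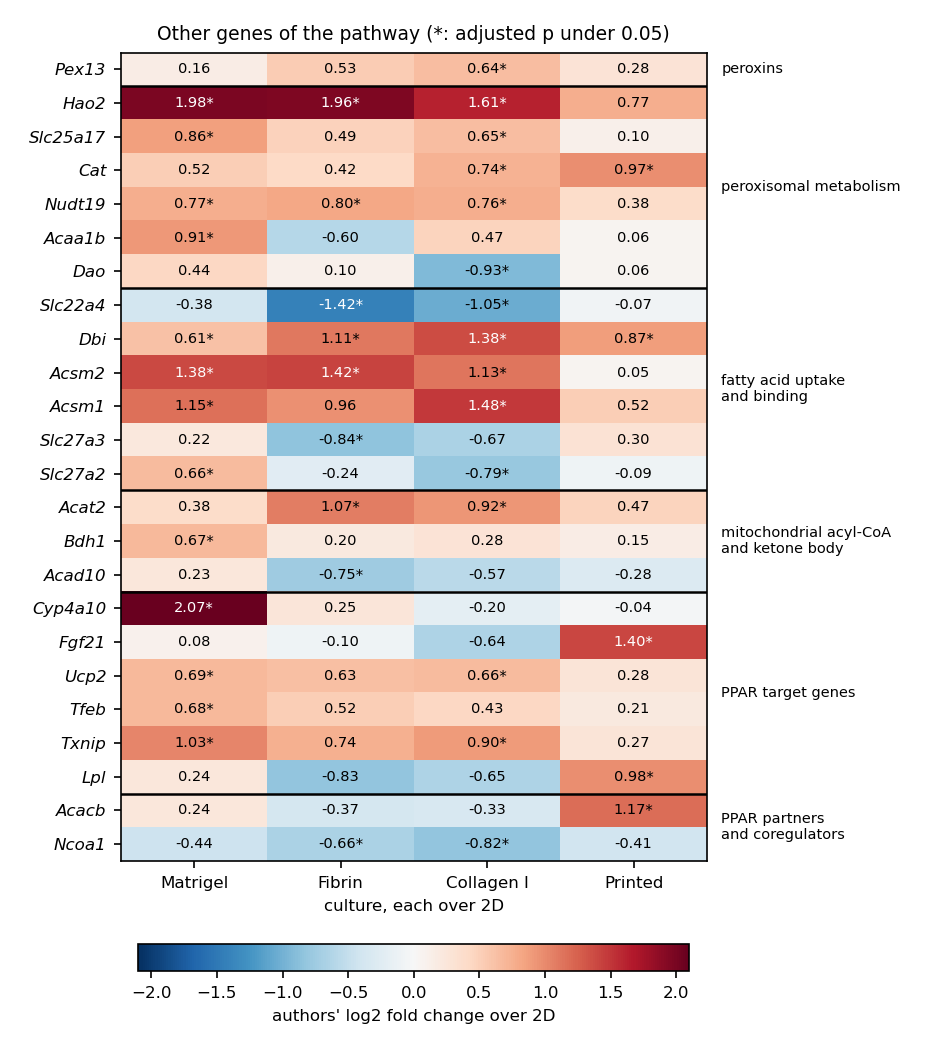
Log2 fold change over 2D of other pathway genes that passed in at least 1 table, up to 6 from each list, from the authors' deposited tables, by list; asterisks mark an adjusted p under 0.05. Dbi is marked in all 4 columns, and the printed cultures have marks at Cat, Dbi, Fgf21, Lpl and Acacb.

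The labelled cell type was checked against marker lists. Of 12 tubular epithelium markers, 11 had an implied level over 100 normalized reads in 2D, from the authors' deposited tables. Of 13 proximal tubule markers, which include Acsm2, 7 did, among them Lrp2, Cubn and Hnf4a, while the transporter genes Slc34a1, Slc5a2, Slc5a12, Aqp1 and Slc22a6 were under 10. The summed level of the proximal tubule list was 58391, 39896, 40962 and 47733 in Matrigel, fibrin, collagen I and the printed cultures, against 42298 in 2D. Most of this sum is Lrp2, Hnf4a and Ggt1, and its members went different ways in the authors' deposited tables (DESeq2 adjusted p under 0.05). Kap, an androgen-regulated gene of the proximal tubule, rose by 3.02, 1.99 and 2.86 on the log2 scale in Matrigel, fibrin and collagen I. The peptidase gene Anpep fell in fibrin and collagen I (-2.23 and -2.46), and the peptidase gene Mme rose by 1.70 in fibrin. Lrp2 and Cubn, which take up filtered protein, rose by 0.56 and 0.73 in Matrigel. Adipocyte markers, of interest because fat cells express these genes, were under 10 for 6 of 7, with Cidec the exception and Adipoq and Plin1 under 1 in 2D. Endothelial markers were under 10 for 5 of 5. The summed immune list was 281, 367, 549 and 1431 in the 4 cultures, against 410 in 2D; the high value in the printed cultures is that of Cd68, a lysosomal gene, with Cd3e at 0 and Ptprc near 0. The summed fibroblast list was 6508, 12350, 8507 and 13932, against 14617 in 2D. Of its 10 markers, 3 had an implied level over 100 in 2D and 4 were under 10. The summed tubular epithelium list was 179896, 127452, 148863 and 219969 in the 4 cultures, in the same order, against 157986 in 2D. The part of cell makeup in the values above was not tested.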

How the data were processed

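The authors sequenced total RNA of 15 cultures, 5 conditions with 3 libraries each. Per the submitters' processing notes, reads were handled on build mm10 with STAR 2.6.0b-1 and featureCounts 1.6.3, after FastQC 0.72 and Trim Galore 0.4.3, and tested with DESeq2 1.22.1. The strand setting, the annotation and the model terms are not given in the sources at hand. The deposited base mean is a signal, a mean of read counts that the authors scaled by size factors. The deposited fold change and standard error are on the log2 scale, and the deposited Wald statistic is a score, their ratio. The deposited p-value is two-sided, and the authors adjusted it by Benjamini-Hochberg, leaving it missing for low genes. The deposited log2 fold changes are shrunken, as read from their values: the largest of a gene with a base mean under 1 is 0.13 in size. The table of the printed cultures is named for collagen alone, whereas the labels give both gels. The replicates share numbers across conditions, since the labels' design splits each passage over all of them.

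A gene was called where the authors' adjusted p was under 0.05. Levels per condition were implied from base mean and fold change, and given per kilobase of the longest GENCODE M21 coding transcript (GRCm38); they are means of 3 libraries with no spread, and for genes under a base mean of 10 they are approximate. Differences between cultures used a two-sided normal p. Intervals are 95% (1.96 standard errors) and depth per library is unknown. The calculations used numpy 2.4.6, pandas 2.3.3 and scipy 1.17.1 and were tested on simulated data. The genes and lists were chosen with earlier results of these data known. All genes that passed were named, the PPAR genes, Ppargc1a, the Cpt1 genes and the highest gene of each role too, and up to 6 per other list by smallest adjusted p. Genes that share sequence with these are named for that reason, and Acaa2, Acot8, Acsl1, Acox2, Hadha, Hadhb, Pex5, Pex11a, Ehhadh, Hsd17b4, Cpt2, Slc25a20, Crat and the markers Kap, Anpep and Mme were named after their values were seen. Alternatives were other thresholds, filters, centring, the empirical null and an assumed correlation of 0.5; those for the other pathway genes were chosen after seeing the data.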

Additional observations from a re-analysis of the deposited data

Results flagged for a closer look

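Differences between cultures passed the adjusted test for 7 of the other pathway genes, in 12 combinations of gene and pair. In Matrigel minus fibrin 2 of 118 tested passed, in Matrigel minus collagen I 2 of 116, in Matrigel minus printed 2 of 117, in fibrin minus collagen I 0 of 116, in fibrin minus printed 4 of 117 and in collagen I minus printed 2 of 116. Of all genes, 1.13%, 0.478%, 0.612%, 0.548%, 1.4% and 0.89% passed in the same order. In fibrin minus collagen I, 2 of the 116 had an unadjusted p under 0.05. On the log2 scale, the fold change of Cyp4a10 in Matrigel exceeded that in fibrin by 1.81, in collagen I by 2.27 and in the printed cultures by 2.11. Acaa1b was higher by 1.52 in Matrigel than in fibrin, and Slc27a2 by 1.45 in Matrigel than in collagen I. Acsm2 was higher in Matrigel than in the printed cultures by 1.33, and in fibrin than in the printed cultures by 1.36. Against the printed cultures, fibrin gave differences of -1.35 for Slc22a4, -1.80 for Lpl and -1.53 for Acacb, and collagen I gave -1.62 for Lpl and -1.4998 for Acacb. The pairings share the 2D libraries. None of the 42 core genes passed in any pairing. The difference of Acsm2 between fibrin and printed was lost when the adjustment covered only base means from 100 upward (adjusted p = 0.052), and that of Lpl between collagen I and printed under the empirical null (adjusted p = 0.053).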

How the results depend on the processing

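No call of a gene changed direction under any alternative run. The median log2 fold change of the 42 genes in fibrin changed sign when only base means from 100 upward were kept. That median went from -0.026 to 0.036 in the authors' deposited table. Under the empirical null, the count of the 42 genes that passed was 1 in fibrin, collagen I and the printed cultures, against 3, 3 and 2, and the genes left were Acot2, Acot2 and Acsl3. With an adjusted p under 0.01 it was 1 in the printed cultures (Acsl3). Between Matrigel and printed, 2 genes passed with a correlation of 0.5 between the fold changes (Acsl3 and Etfb) and 1 under the empirical null (Acsl3), against 0. Between collagen I and printed, 1 passed with that correlation (Acot2), against 0. The cause was not tested. The other 53 recomputed counts and medians stayed within 1.5 times or within the spread. Of the calls of other pathway genes, 31 of 42 held at 0.01 and 38 of 42 without the filter on low base means, which lost Slc27a2 in Matrigel and collagen I, Ncoa1 in fibrin and Pex13 in collagen I.

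No paired analysis was possible because the tables hold 1 value per gene and comparison. Leaving out a replicate and a replicate block were not run for the same reason, so 1 odd library cannot be seen. The 4 comparisons share the 2D libraries. Fold changes are shrunken, which understates changes of low genes.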
